A study of Mus musculus with 2 samples.

Results

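Matricellular proteins are secreted into the extracellular matrix but serve mainly to regulate how cells attach, move and respond to growth factors, rather than to bear load. The set described here held periostin (Postn), tenascin-C (Tnc), thrombospondin-1 and -2 (Thbs1, Thbs2), osteonectin (Sparc), osteopontin (Spp1), the CCN proteins Ccn1, Ccn2 and Ccn5, and fibronectin (Fn1), the adhesive glycoprotein on which other matrix proteins assemble. The 10 genes were taken by symbol from the 32285 features of each matrix, and all 10 were found. Many of these proteins are ligands of integrins, which couple the matrix to the cytoskeleton, and in heart valves periostin is known for its part in the maturation of the leaflets.

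Transcripts of single cells were counted in mitral valve leaflets of mice on the C57BL/6J background at 12 weeks of age. WT animals were Fbn1 +/+ littermates, and mgR animals were homozygous for the hypomorphic Fbn1 mgR allele, in which a neo cassette inserted into an intron lowers fibrillin-1. There was 1 library per genotype, and neither group had been treated. The labels do not say how many animals contributed to each library. Collagenase and elastase had been used to free the cells, which were sorted for viability, so the levels are those of cells that survived this procedure.

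After filtering, 875 WT and 3438 mgR cells remained, with a median of 5033 and 7370 unique molecular identifiers (UMIs, tags that mark each captured transcript). Only 2 cell barcodes occurred in both libraries. Xist UMIs without Y-linked UMIs were found in 28.1% of WT and 60.8% of mgR cells, and Y-linked UMIs alone in 38.5% and 21.1%, although the methods describe experimental comparisons in male mice. The libraries therefore differed in the mix of cells with sex-linked transcripts as well as in genotype, and values within each kind of cell are given below. Fbn1, the targeted gene, measured 171.1 CPM (counts per 1000000 UMIs) in WT and 135.3 CPM in mgR fibroblasts, as defined next, and whether transcripts of the mgR allele are counted in full was not examined.

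Cells were classed by UMIs of marker genes. Fibroblasts held at least 10 UMIs of Col1a2, Col3a1 and Dcn summed, macrophages at least 10 of C1qa, C1qb and C1qc, and endothelium at least 2 of Pecam1 and Cdh5. Cells that met a single rule numbered 322 WT and 879 mgR fibroblasts, 224 and 1539 macrophages, and 29 and 150 endothelial cells. Markers outside the rules were then examined. Col1a1 was detected in 87.3% of WT and 90.0% of mgR fibroblasts, and Csf1r in 94.6% and 96.0% of macrophages. Endothelial cells were marked less evenly, with Egfl7 in 55.2% and 75.3%, Emcn in 41.4% and 69.3%, and Tie1 in 44.8% and 42.7%. Cldn5 was detected in 13.8% and 10.7% of them and Vwf in 3.45% and 21.3%. Dcn, a fibroblast gene, was detected below its limit in 72.4% and 74.0% of endothelial cells.

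A further 28 WT and 304 mgR cells met both the fibroblast and the endothelium rule and were kept apart as dual-rule cells. They carried both endothelial and fibroblast markers. In the mgR library Pecam1 was detected in 99.7% of them, Egfl7 in 85.2% and Emcn in 84.2%, but Cldn5 in 5.92%. Lum was detected in 51.6%, Col3a1 in 30.3%, Pdgfra in 19.7%, Col1a2 in 12.2% and Col1a1 in 8.88%. Dcn, which encodes the proteoglycan decorin, carried the fibroblast sum at 7225 CPM, against 533.1 CPM in cells that met the endothelium rule alone and 20.1 CPM in T cells. The median depth of dual-rule cells was 5515 UMIs in the WT and 5863 UMIs in the mgR library. Fibroblasts had 5182 and 6729 UMIs, and endothelium had 4302 and 5222 UMIs. In the WT library Lum was detected in 53.6% of the dual-rule cells, Pdgfra in 42.9%, and Col1a2 and Col3a1 in 39.3% each. Whether some of them were doublets was not tested beyond Scrublet, which marked 0 of the 28 WT and 8 of the 304 mgR cells. The latter made up 2.63%, against 0.683% of mgR fibroblasts and 1.48% of all mgR cells kept.

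Values are CPM within a class, and intervals in parentheses are exact 95% intervals that cover counting error only. Cells of 1 library are not replicates, so no test was made, and intervals are too narrow where few cells hold most UMIs of a gene. Levels are not compared between genes. Few UMIs of these genes were found where they should be lacking. Among cells with T cell markers, 7 of the 10 genes had 0 UMIs in 90 WT cells, and none exceeded 2 UMIs. In 147 mgR T cells no gene exceeded 3 UMIs or 1.36% of cells, at a median of 5061 UMIs per cell against 4134 in the WT library. For a gene at 0 UMIs, the share of T cells with a UMI could be up to 3.33% in the WT and 2.04% in the mgR library.

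Most of the genes were expressed chiefly in fibroblasts. WT fibroblasts held 87.7% of the library's Postn UMIs, 92.7% of Thbs1, 95.8% of Thbs2, 94.5% of Sparc, 97.0% of Ccn2 and 99.5% of Ccn5. A median fibroblast carried UMIs of 4 of the 10 genes in each library, and 2 WT and 5 mgR fibroblasts carried none. By contrast, 75.9% of WT and 74.0% of mgR macrophages carried none of the 10. Exceptions were Tnc, with 46.7% of 15 WT UMIs in fibroblasts and as many in melanocyte-marker cells, and Ccn1, with 74.7% in WT fibroblasts but 39.9% in mgR fibroblasts and 39.5% in mgR dual-rule cells. Fn1 was spread more widely, with 23.0% of its WT UMIs in fibroblasts, 24.6% in endothelium and 35.1% in dual-rule cells. In the mgR library dual-rule cells held 43.1% of Fn1 UMIs, macrophages 26.0% and fibroblasts 12.1%. Spp1 was split between fibroblasts (51.0% of WT UMIs) and macrophages (36.8%), and 3 WT fibroblasts held 70.9% of the fibroblast part. In the mgR library macrophages held 67.5% of Spp1 UMIs and fibroblasts 12.5%.

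**Figure D1:**
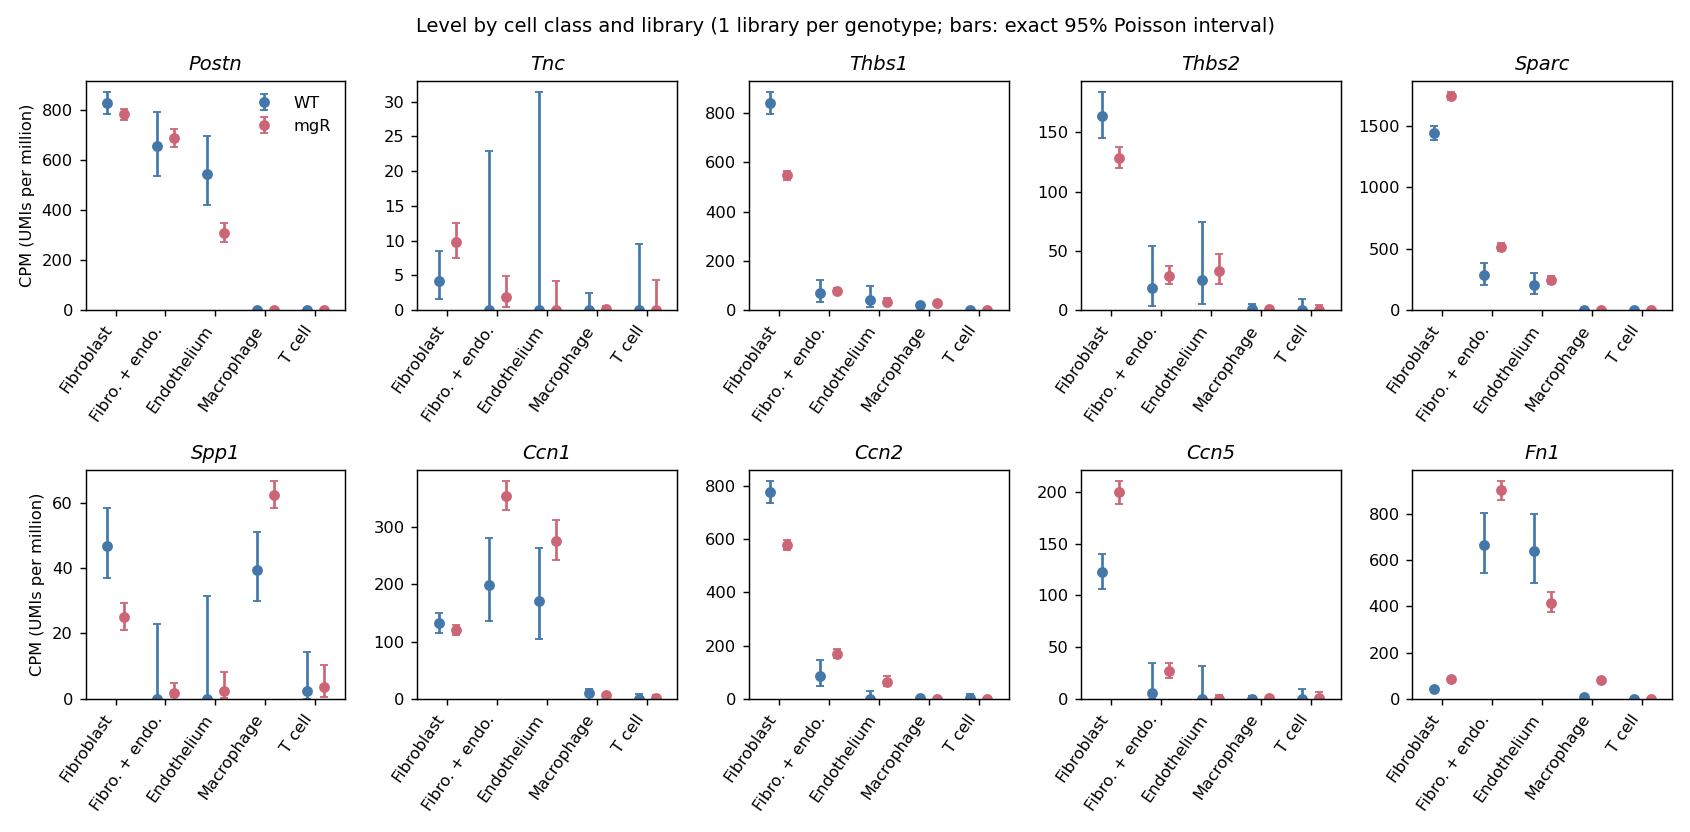
Level of each gene in CPM (vertical axis, scaled per gene) in 5 cell classes (horizontal axis) of the WT (blue) and mgR (red) library, with exact 95% Poisson intervals as bars. Fn1 was highest in dual-rule cells and endothelium, Spp1 in fibroblasts and macrophages, Ccn1 in dual-rule cells (198.3 and 353.8 CPM), and the other genes in fibroblasts among the classes drawn.

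In fibroblasts the CPM ratio of mgR to WT lay above 1 beyond counting error for 4 genes, Fn1, Tnc, Ccn5 and Sparc. It lay below 1 for Thbs1, Thbs2, Spp1 and Ccn2, and the intervals of Postn and Ccn1 reached 1. Past 1.5-fold, 3 of the 10 genes were higher (Tnc, Ccn5 and Fn1) and 2 lower (Thbs1 and Spp1). Over the 9456 genes with at least 50 UMIs in fibroblasts, 6.67% were higher and 7.84% lower by that measure. Transcripts of macrophages differed in fibroblasts too, with Lyz2 at 15.4 CPM in 7.45% of WT and 173.3 CPM in 27.1% of mgR fibroblasts. Csf1r was at 2.37 and 7.09 CPM, Mrc1 at 0.592 and 2.10 CPM, and Adgre1 at 0 and 0.484 CPM. Cd68 went the other way, at 8.29 CPM in 4.35% of WT and 5.80 CPM in 3.41% of mgR fibroblasts. In T cells Lyz2 was found in 10% of WT cells (23.1 CPM) and 24.5% of mgR cells (95.9 CPM), so it was higher in mgR cells of another class as well. Their part in the values of the 10 genes was not tested.

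**Figure D2:**
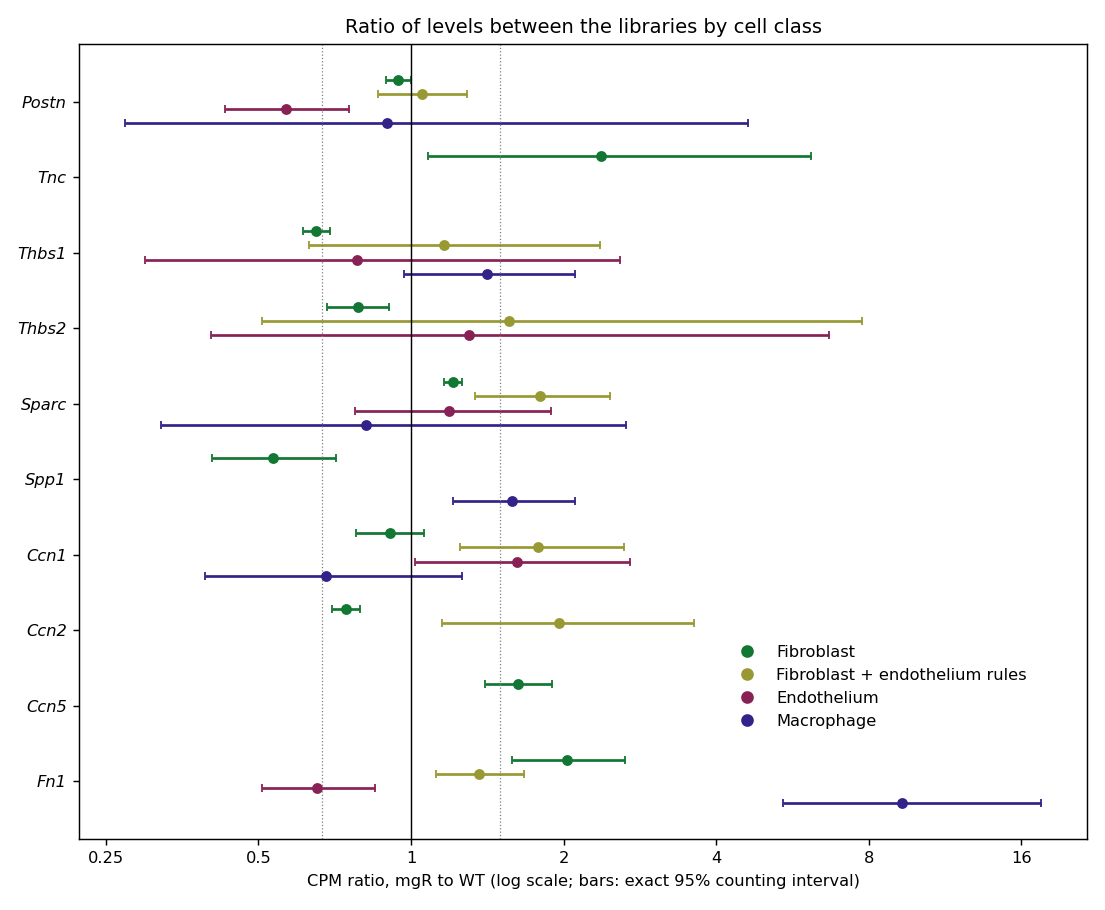
CPM ratio of mgR to WT (horizontal axis, log scale) for each gene in 4 cell classes, with exact 95% counting intervals, dotted lines at 1.5-fold and genes with too few UMIs left out. The macrophage ratio of Fn1 (9.30) was the highest shown, while its endothelial ratio was 0.652, with 70.7% of the WT UMIs in 2 cells.

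Postn encodes periostin, a fasciclin-domain protein that binds integrins and helps collagen fibrils to assemble. It lies on chromosome 3 of GRCm38 (54361109 to 54391037, plus strand). Fibroblasts held 1399 WT UMIs and 4858 mgR UMIs, or 828.4 CPM (785.6 to 873.0) and 783.2 CPM (761.3 to 805.6). The ratio was 0.945 (0.891 to 1.0), so the libraries were close. Postn was detected in 63.4% of WT and 59.5% of mgR fibroblasts, and in 46.6% and 44.7% when cells were thinned to 2000 UMIs. Expression was uneven: 41 WT fibroblasts with at least 10 UMIs held 62.6% of its UMIs, and 138 mgR fibroblasts held 71.2%.

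Periostin transcripts were also found in the classes that met the endothelium rule. Dual-rule cells measured 656.7 CPM (WT) and 689.3 CPM (mgR), with a ratio of 1.05 (0.861 to 1.29), which was 2.30 with class limits of 20, 20 and 4 UMIs. In cells of the endothelium rule alone the values were 544.3 and 308.4 CPM, a ratio of 0.567 (0.430 to 0.756). That ratio rested on a single WT cell with 51 of the 64 WT UMIs. With the 1% of cells richest in Postn left out of each library it was 1.95, in the other direction. Postn reached 2.08 and 1.86 CPM in macrophages, in the range of the T cells.

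Tnc encodes tenascin-C, a hexameric protein that is produced during development and wound repair (chromosome 4, 63959785 to 64047015, minus strand). It was sparse, with 7 UMIs in 5 of 322 WT fibroblasts and 61 UMIs in 26 of 879 mgR fibroblasts. The levels were 4.15 and 9.83 CPM and the ratio 2.37 (1.08 to 6.15). A single mgR cell held 20 of the 61 UMIs, and after thinning to 2000 UMIs the ratio was 0.542. The direction of the Tnc difference was thus not settled at this depth. Outside fibroblasts the only other class with more than 4 UMIs was the cells with melanocyte markers, where 7 of 23 WT cells and 1 of 8 mgR cells carried a UMI.

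The thrombospondins are trimeric or pentameric glycoproteins, and thrombospondin-1 and -2 restrain blood vessel growth and bind CD47 and CD36. Thrombospondin-1 can also activate latent TGF-β. Thbs1 (chromosome 2, 118111876 to 118127133, plus strand) had 1418 WT and 3391 mgR UMIs in fibroblasts. The levels were 839.7 CPM (796.5 to 884.5) and 546.7 CPM (528.5 to 565.4), a ratio of 0.651 (0.612 to 0.693). The share of fibroblasts with a UMI was nearly equal, at 54.7% and 54.0%, but after thinning it was 46.9% in the WT and 39.2% in the mgR library.

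Thbs2 (chromosome 17, 14665500 to 14694235, minus strand) was spread over many fibroblasts at low counts. It was detected in 46.6% of WT and 47.8% of mgR fibroblasts, and no fibroblast held more than 10 UMIs. The levels were 163.4 CPM and 128.3 CPM, a ratio of 0.785 (0.684 to 0.904). Thbs1, unlike Thbs2, was found in immune cells as well. Cells with neutrophil markers held 13 UMIs in 6 of 17 WT cells and 59 UMIs in 11 of 37 mgR cells. Macrophages held 30 UMIs in 10 WT cells and 393 UMIs in 66 mgR cells, a ratio of 1.41 (0.970 to 2.11). Thbs2 had 2 and 9 UMIs in macrophages.

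Sparc encodes osteonectin, a collagen-binding protein needed for normal collagen fibril assembly (chromosome 11, 55394500 to 55423183, minus strand). It was detected in nearly all fibroblasts, in 91.9% of WT (88.4 to 94.7) and 95.9% of mgR fibroblasts (94.4 to 97.1). The levels were 1442 CPM (1386 to 1501) and 1742 CPM (1709 to 1775), a ratio of 1.21 (1.16 to 1.26). A single WT fibroblast held 236 of 2436 WT UMIs, and without the richest 1% of cells the ratio was 1.35. Dual-rule cells had 285.0 and 512.9 CPM, a ratio of 1.80 (1.34 to 2.47). Endothelium had 204.1 and 241.9 CPM, a ratio of 1.19 (0.775 to 1.89), or 1.92 with class limits of 20, 20 and 4 UMIs. Melanocyte-marker cells carried Sparc too, in 10 of 23 WT and 7 of 8 mgR cells.

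Spp1 encodes osteopontin, a phosphoprotein that binds integrins and CD44 and is made by bone-forming cells and by activated macrophages (chromosome 5, 104435118 to 104441050, plus strand). An annotated gene, Gm42793, overlaps it on the same strand, so the counting could divide reads between them. In fibroblasts 10 WT cells held 79 UMIs and 47 mgR cells held 155 UMIs. The levels were 46.8 and 25 CPM, a ratio of 0.534 (0.405 to 0.710). The share of fibroblasts with a UMI ran the other way, at 3.11% and 5.35%, and was 2.05% and 2.25% after thinning. Without the richest 1% of cells the CPM ratio was 1.18. The lower mgR level therefore rested on a few WT cells.

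In macrophages Spp1 had 57 WT and 839 mgR UMIs, or 39.5 CPM (29.9 to 51.1) and 62.4 CPM (58.2 to 66.7). The ratio was 1.58 (1.21 to 2.11). It was detected in 9.82% of WT and 12.5% of mgR macrophages, but in 6.42% and 5.35% after thinning, so the share of cells did not differ detectably at equal depth. Much of the mgR signal lay in a few cells, since 22 mgR macrophages with at least 10 UMIs held 49.6% of them, and the highest WT macrophage held 7. Among mgR cells outside every class, 2 cells held 149 of 164 Spp1 UMIs, against 0 UMIs in 82 WT cells of that kind.

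The CCN proteins share insulin-like growth factor binding, von Willebrand factor C and thrombospondin repeat domains. Ccn1 and Ccn2, also known as Cyr61 and CTGF, are classic targets of the YAP and TEAD transcription factors and respond to stretch, and Ccn5 lacks the C-terminal domain of the others. Ccn2 (chromosome 10, 24595442 to 24598683, plus strand) had 1310 WT and 3577 mgR UMIs in fibroblasts. The levels were 775.7 CPM (734.3 to 818.9) and 576.7 CPM (557.9 to 595.9), a ratio of 0.743 (0.698 to 0.793). It was detected in 63.4% and 66.8% of fibroblasts, and in 53.4% and 46.6% after thinning. In dual-rule cells the direction was the opposite, with 14 UMIs in 4 of 28 WT cells and 351 UMIs in 79 of 304 mgR cells and a ratio of 1.96 (1.15 to 3.62). In endothelium it had 0 WT and 57 mgR UMIs, and the lower counting limit of the ratio was 2.02. A single mgR cell held 37 of the 57, so that limit rested largely on a single cell.

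Ccn1 (chromosome 3, 145646976 to 145649981, minus strand) had 222 WT and 740 mgR UMIs in fibroblasts. It measured 131.5 CPM (114.7 to 149.9) and 119.3 CPM (110.9 to 128.2), a ratio of 0.908 (0.780 to 1.06), which moved to 0.582 among Xist-only cells and to 1.27 with cells of several rules included. Dual-rule cells had 198.3 and 353.8 CPM, a ratio of 1.78 (1.25 to 2.63), and endothelium 170.1 and 275.1 CPM, a ratio of 1.62 (1.02 to 2.70). With Y-linked UMIs alone these ratios were 1.12 (0.611 to 2.25) and 0.425 (0.165 to 1.22), and with stricter class limits of 20, 20 and 4 UMIs the dual-rule ratio was 2.68. Ccn1 was detected in 57.1% of WT and 53.3% of mgR dual-rule cells, so the share of cells was not higher. The summed level of 20 immediate early genes, which respond to stimulation and to tissue digestion within minutes, was also higher in the mgR library in these classes, at 11511 and 14934 CPM in dual-rule cells and 11252 and 14610 CPM in endothelium. Past 1.5-fold, 4 of 18 measured immediate early genes were higher and 0 lower in dual-rule cells, and 6 of 17 were higher and 0 lower in endothelium, where 17.6% and 17.8% of all genes measured were higher. In fibroblasts the sum was 10848 and 11901 CPM. Its part in the Ccn1 values was not tested.

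The promoter of Ccn1 is shown because the genes whose levels ran most closely with Ccn1 from cell to cell were immediate early genes, as described below. It covers 250 bases before and 50 after the annotated start (RefSeq, GRCm38.p6, chr3:145649936-145650235, minus strand), with matches to the TEAD motif GGAATG and the TATA box TATAAA, on either strand, in capitals.
Ccn1: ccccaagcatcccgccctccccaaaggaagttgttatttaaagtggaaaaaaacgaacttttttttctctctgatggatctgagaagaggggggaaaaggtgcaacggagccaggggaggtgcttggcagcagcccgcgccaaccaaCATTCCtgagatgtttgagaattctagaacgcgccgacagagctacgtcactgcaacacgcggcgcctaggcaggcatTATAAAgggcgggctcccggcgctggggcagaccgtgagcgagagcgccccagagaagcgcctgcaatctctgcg
The TEAD match begins at -103 and the TATA match at -25 from the start. Among 32851 promoters of this length, 14.7% held the TEAD motif and 13.6% the TATA motif. The AP-1 motif TGACTCA (5.20% of promoters), the cyclic AMP response element TGACGTCA (1.79%) and the CArG box (1.63%) had no match in this window. Promoter entries were found for 6 of the 10 genes, with 9 entries in all, and the other entries held no TEAD match.

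Ccn5 (chromosome 2, 163820861 to 163833146, plus strand) was higher in mgR fibroblasts. It had 207 WT and 1238 mgR UMIs, or 122.6 CPM (106.4 to 140.5) and 199.6 CPM (188.6 to 211.0), a ratio of 1.63 (1.40 to 1.90). It was detected in 16.8% of WT (12.9 to 21.3) and 30.0% of mgR fibroblasts (27.0 to 33.2), and in 11% and 19.4% after thinning. More cells with Ccn5 thus went with the higher level. Outside fibroblasts it was close to absent, with 0 UMIs in 29 WT and 150 mgR endothelial cells, which allows a share of cells with a UMI of up to 10.3% and 2.0%. In dual-rule cells 1 WT and 56 mgR UMIs were found, a ratio of 4.37 (0.753 to 175.6), and 2 mgR cells held 62.5% of the 56.

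Fn1 encodes fibronectin, the ligand of integrin α5β1 (chromosome 1, 71585520 to 71653200, minus strand). It was highest in dual-rule cells, where 15 of 28 WT cells and 215 of 304 mgR cells carried it. There it measured 662.9 CPM (543.3 to 801.1) and 901.0 CPM (860.6 to 942.9), a ratio of 1.36 (1.12 to 1.67). Endothelium of the single rule went the other way, with 637.9 CPM (501.7 to 799.6) and 416.1 CPM (374.4 to 461.2), a ratio of 0.652 (0.508 to 0.848). Only 2 WT cells held 70.7% of the 75 WT UMIs there. The share of endothelial cells with a UMI was not lower in the mgR library, at 31.0% in the WT and 35.3% in the mgR library. Pooled, all cells that met the endothelium rule had a ratio of 1.17. The direction among cells that met the endothelium rule was thus set by which cells were counted, and the WT classes held 29 and 28 cells.

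Fibroblasts carried less Fn1, at 41.5 CPM (32.3 to 52.4) in the WT and 84.2 CPM (77.1 to 91.7) in the mgR library. The UMIs numbered 70 and 522, and the ratio was 2.03 (1.58 to 2.64). It was detected in 9.63% of WT and 17.3% of mgR fibroblasts, and in 7.53% and 10.6% after thinning. The sum of endothelial transcripts moved with this difference, but not each marker did. The 7 endothelial markers summed to 23.1 CPM in WT and 41.8 CPM in mgR fibroblasts, with Cdh5 at 0 and 0.322 CPM. The 96 mgR fibroblasts with a UMI of any of the 7 markers held 34.9% of the Fn1 UMIs of mgR fibroblasts. In the WT library 27 such fibroblasts held 4.29%. Without those cells the ratio was 1.44, and with dual-rule cells counted as fibroblasts, as the rules allow, it was 2.95.

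In macrophages Fn1 had 13 UMIs in 5 of 224 WT cells and 1126 UMIs in 77 of 1539 mgR cells. The levels were 9.0 CPM (4.79 to 15.4) and 83.7 CPM (78.9 to 88.7), a ratio of 9.30 (5.42 to 17.5). The share of cells with a UMI was 2.23% (0.729 to 5.13) and 5.0% (3.97 to 6.21). Nearly all of the mgR signal came from 26 cells with at least 10 UMIs, which held 90.0% of it, and the richest cell held 135. No WT macrophage exceeded 4 UMIs. Past 1.5-fold, Fn1 and Spp1 were higher among the 4 genes with 50 UMIs in macrophages and 0 were lower. Of 9378 genes measured there, 15.8% were higher and 6.25% lower. A low share was found in cells with dendritic cell markers too, where 12 of 166 mgR cells held 200 UMIs and 1 of 46 WT cells held 1.

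**Figure D3:**
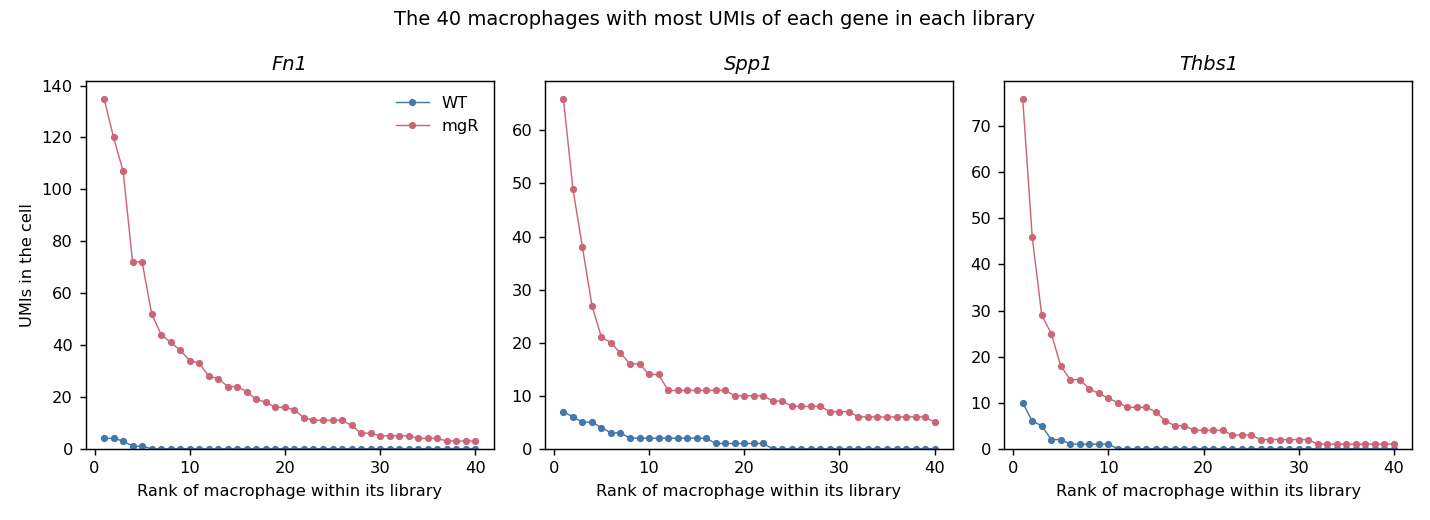
UMIs of Fn1, Spp1 and Thbs1 (vertical axis) in the 40 macrophages with most UMIs of the gene (horizontal axis, rank) in the WT library (blue, of 224 macrophages) and the mgR library (red, of 1539). Fn1 reached 135 UMIs in an mgR cell and 4 in a WT cell, and fell steeply with rank.

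The 26 macrophages rich in Fn1 were set against the 1462 mgR macrophages without a Fn1 UMI, to describe them after their values had been seen. They were deeper, with a median of 14975 UMIs against 8232. They carried Thbs1 at 597.1 CPM against 6.08 CPM and Spp1 at 112.6 against 49.9 CPM. Thbs1 was detected in 15 of the 26. Their complement transcripts were lower, with C1qa at 2593 against 6468 CPM, and the monocyte receptor Ccr2 was higher, at 188.6 against 24.7 CPM. Chil3, used as a monocyte-like marker, was also higher, at 23.6 against 1.68 CPM and in 15.4% against 0.616% of cells. Cx3cr1 was lower, at 36.7 against 128.1 CPM, as was Cd72, at 26.2 against 129.6 CPM. Ly6c2 (2.62 against 18.4 CPM) and Plac8 (2.62 against 12.7 CPM) were lower too, each from 1 UMI in the 26 cells. Folr2, a marker of resident macrophages, was at 227.8 against 756.1 CPM, and Cd163 had 0 UMIs. Dcn was detected in 23.1% of them against 17.2% of the others, and Col1a2 in 7.69% against 0.889%, from 2 UMIs. The class had been formed without cells that met the fibroblast or endothelium rule, so these transcripts say nothing of the source of Fn1, which was not tested. Among genes at 100 CPM or more in the 26 cells and found in at least 50% of them, F10 and Slc7a11 led by CPM ratio after Thbs1. F10, coagulation factor X, was at 193.8 against 2.24 CPM, and Slc7a11, the cystine transporter, at 442.6 against 35.3 CPM. Icam2 and Alox15, known from macrophages of the body cavities, were checked by name and fell short of that share of cells. They were found in 7 and 6 of the 26 cells, and Alox15 had 0 UMIs in the 1462 others.

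Macrophages were also divided by subset markers with a limit of 3 UMIs. In 285 mgR macrophages with Cx3cr1 or Cd72 alone, Spp1 measured 204.8 CPM (188.1 to 222.7), and in 839 with Lyve1, Folr2 or Cd163 alone it measured 17.8 CPM (14.8 to 21.1). In the WT library the same subsets had 70.9 CPM in 67 cells and 0 UMIs in 68 cells. Spp1 was thus lower in Lyve1, Folr2 and Cd163 macrophages than in Cx3cr1 and Cd72 macrophages of both libraries. Fn1 and Thbs1 did not follow that division. Of the 1126 Fn1 UMIs, 874 lay in 264 mgR macrophages that reached the limit for no subset, at 477.7 CPM. Thbs1 was at 391.7 CPM in 23 mgR macrophages with Ly6c2, Plac8 or Chil3, a class with 0 WT cells.

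Fibroblasts were divided in the same manner by a limit of 3 UMIs of Fmod, Prg4 and Scx, genes of tendon and fibrous tissue, and of 3 UMIs of Ptx3, Igfbp3 and Smoc2. The first limit alone was reached by 94 WT and 310 mgR cells and the second alone by 98 and 242. Cells of the first group made up 29.2% of WT and 35.3% of mgR fibroblasts, and those of the second 30.4% and 27.5%. The limits were applied without thinning, and whether depth moved cells between the groups was not tested. Several of the genes separated the groups in each library. Spp1 measured 104.6 and 63.9 CPM in the first and 1.89 and 0 CPM in the second. Sparc was higher in the first group in the WT (ratio 1.35, 1.22 to 1.49) and the mgR library (1.49, 1.42 to 1.56), and so was Postn (1.47 and 1.44). Ccn5 was lower in the first group, at 27.1 against 281.6 CPM in the WT and 137.0 against 305.8 CPM in the mgR library. Fn1 was likewise lower in it, at 7.75 against 103.9 CPM and 63.5 against 97.2 CPM.

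The mgR to WT ratio of some genes also differed between these groups. Fn1 had 4 WT and 145 mgR UMIs in cells with Fmod, Prg4 and Scx, a ratio of 8.19 (3.13 to 30.5), whereas it was 0.935 (0.686 to 1.29) in cells with Ptx3, Igfbp3 and Smoc2. Ccn5 had a ratio of 5.05 (2.97 to 9.35) in the former and 1.09 (0.904 to 1.31) in the latter. In cells that reached neither limit (103 WT and 226 mgR) the ratios were 4.83 (2.55 to 10.3) for Fn1 and 2.03 (1.41 to 2.99) for Ccn5. In cells that reached both limits (27 and 101) Ccn5 had 4.71 (2.43 to 10.5), and Fn1 had 1 WT and 65 mgR UMIs, a ratio of 15.3 (2.65 to 613.8). As grouped here, the higher fibroblast levels of both genes thus lay outside the cells with Ptx3, Igfbp3 and Smoc2 alone. Those cells carried most of the fibroblast UMIs of each gene in the WT library. Thbs1 was lower in all 4 groups, with ratios of 0.818 (0.740 to 0.906), 0.459 (0.403 to 0.523), 0.401 (0.346 to 0.464) in cells that reached neither limit and 0.739 (0.630 to 0.871) in cells that reached both. Postn was lower in the groups with a single marker set, at 0.806 (0.726 to 0.896) and 0.821 (0.721 to 0.936), and higher in cells that reached neither limit, at 1.18 (1.05 to 1.33).

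**Figure D4:**
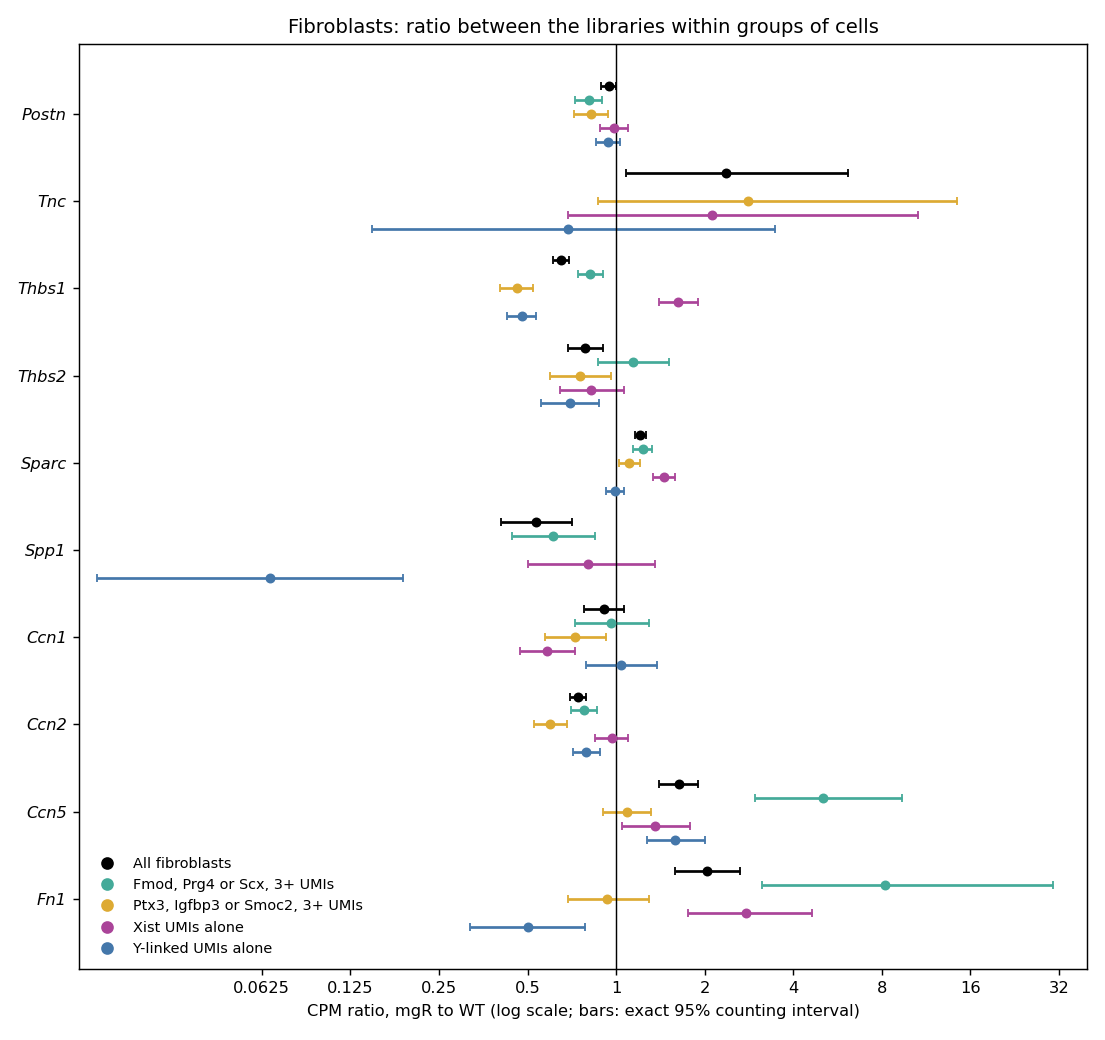
CPM ratio of mgR to WT in fibroblasts (horizontal axis, log scale) over all fibroblasts, in 2 groups by marker UMIs and in cells with Xist or Y-linked UMIs alone, with exact 95% counting intervals. Thbs1 and Fn1 lay on opposite sides of 1 in cells with Xist UMIs (1.62 and 2.77) and with Y-linked UMIs (0.478 and 0.501).

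Cells with Xist UMIs alone (81 WT and 523 mgR fibroblasts) and with Y-linked UMIs alone (144 and 212) gave different ratios for several genes. Thbs1 measured 390.8 CPM in WT and 634.4 CPM in mgR cells with Xist, a ratio of 1.62 (1.40 to 1.90). In cells with Y-linked UMIs it measured 834.2 and 398.9 CPM, a ratio of 0.478 (0.427 to 0.535). Fn1 behaved in the same manner, with 2.77 (1.75 to 4.64) and 0.501 (0.318 to 0.786). Ccn1 had 0.582 (0.470 to 0.727) and 1.04 (0.790 to 1.38), and Spp1 0.805 (0.502 to 1.36) and 0.0668 (0.0172 to 0.188, from 33 WT and 4 mgR UMIs). Tnc had 2.12 (0.687 to 10.6) and 0.688 (0.148 to 3.47, from 4 WT and 5 mgR UMIs). For genes whose ratios differ in this way, genotype and the mix of these cells cannot be told apart. Ccn5 was higher in each kind, at 1.36 (1.05 to 1.79) and 1.59 (1.27 to 2.0), and Postn was near 1 in each, at 0.983 and 0.938. Sparc was 1.46 (1.34 to 1.59) and 0.991 (0.924 to 1.06). Macrophage Fn1 was higher in each kind, at 2.29 (1.20 to 5.05) and 28.5 (11 to 105.0).

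In endothelium and dual-rule cells the counts were read against their own backgrounds. Past 1.5-fold in endothelium, Ccn1 and Ccn2 were higher and Postn and Fn1 lower among 5 genes with enough UMIs, where 17.8% of 3373 genes were higher and 11.6% lower. In dual-rule cells Ccn1, Ccn2, Ccn5, Sparc and Thbs2 were higher and 0 lower among 8 genes, where 17.6% of 5759 genes were higher and 13.5% lower. The intervals of Ccn5 and Thbs2 there included 1, with 1 and 3 WT UMIs.

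Correlations over cells describe which transcripts occur together, with depth and library shared by all points. Over 879 mgR fibroblasts, with 322 WT fibroblasts in second place, Postn ran most closely with Itih5 (Pearson r 0.50 and 0.41), Vcan, which encodes versican (0.45 and 0.37), and Limch1 (0.42 and 0.33). Sparc ran with the collagen genes Col1a1 (0.53 and 0.38), Col1a2 (0.53 and 0.36) and Col3a1 (0.51 and 0.56). Ccn5 ran with Ogn (0.59 and 0.57), Sfrp2 (0.53 and 0.62) and Svep1 (0.43 and 0.52). Thbs1 ran with Fibin (0.42 and 0.15), Fmod (0.41 and 0.17) and Kcnj15 (0.36 and 0.23). Ccn1 ran with the immediate early gene Egr1 (0.35 and 0.25), followed below 0.3 in the mgR library by Fos (0.29 and 0.40) and Jun (0.28 and 0.28), and Ccn2 with Sparc (0.30 and 0.29). No gene reached 0.3 for Tnc or Thbs2 in the mgR library. In macrophages Spp1 ran with Cd9 (0.35 and 0.25). In dual-rule cells Fn1 ran with Ednrb, Rdx and Ahsg (0.45 each in 304 mgR cells, and 0.32, 0.70 and 0.47 in 28 WT cells).

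Among the genes themselves, Postn and Ccn5 were weakly and negatively related, with r -0.27 in the WT and -0.28 in the mgR library. Postn and Thbs1 went together (0.28 and 0.26), as did Thbs1 and Ccn2 (0.26 and 0.29), Sparc and Ccn2 (0.29 and 0.30) and Sparc and Ccn5 (0.30 and 0.26). Tnc and Fn1 reached 0.44 in the WT library, from 5 cells with Tnc, and 0.19 in the mgR library. Ccn1 and Ccn2, the CCN genes with shared regulation by YAP and TEAD, were nearly unrelated (0.07 and 0.08).

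**Figure D5:**
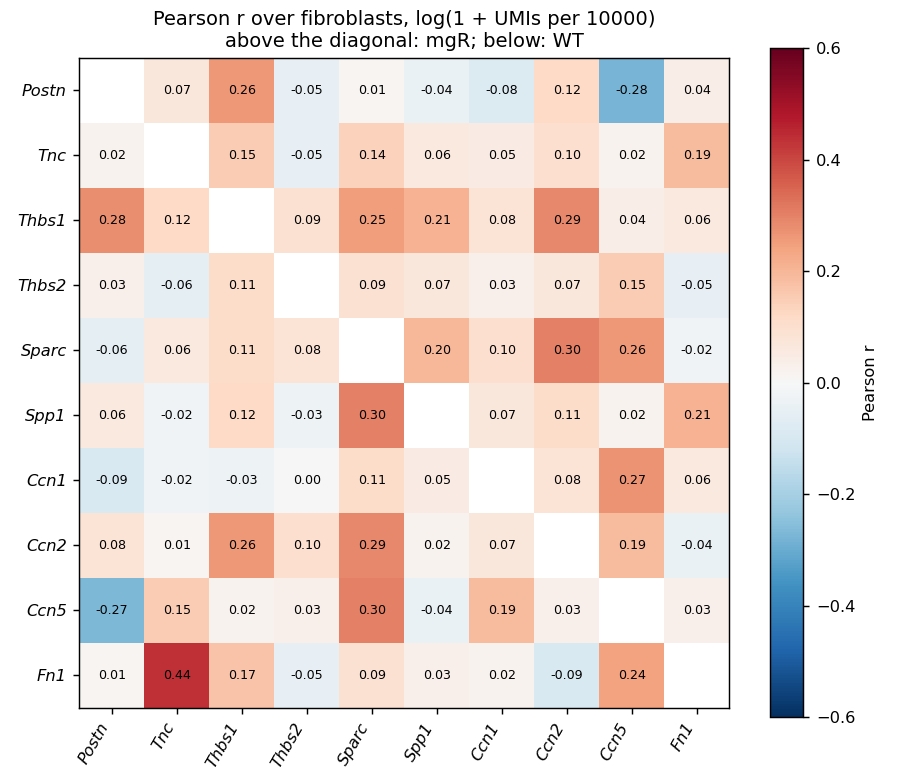
Pearson r between pairs of the 10 genes over fibroblasts, from log(1 + UMIs per 10000), with 879 mgR cells above the diagonal and 322 WT cells below it. In each library Postn and Ccn5 were negatively related (-0.27 WT, -0.28 mgR) and Sparc and Ccn2 positively (0.29, 0.30), whereas Tnc with Fn1 was at 0.44 and 0.19.

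Genes that act with the matricellular proteins were examined in fibroblasts. Of 16 receptors, 11 had 50 UMIs, and 0 were higher and 2 lower past 1.5-fold, with a median log2 ratio of -0.23 against -0.04 over all 9456 genes. These counts, and those of the lists that follow, stand beside 6.67% of all genes higher and 7.84% lower. Those lower were integrin α8 (Itga8), at 118.4 and 71.6 CPM and a ratio of 0.604 (0.510 to 0.718), and the fibronectin receptor subunit Itga5, at 50.9 and 33.1 CPM and a ratio of 0.649 (0.502 to 0.845). The highest ratios were those of Itgb5 (1.17, 0.993 to 1.38) and Itgb8 (1.15, 0.846 to 1.60). Itgb1, which pairs with α5 in the fibronectin receptor, had a ratio of 0.828 (0.768 to 0.892).

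Of 17 relatives of the 10 proteins, 11 had enough UMIs, and 2 were higher and 2 lower. Comp, cartilage oligomeric matrix protein or thrombospondin-5, measured 479.6 CPM (WT) and 863.7 CPM (mgR), with a ratio of 1.80 (1.67 to 1.94). Thbs4 went the other way, at 29.0 and 12.4 CPM and a ratio of 0.428 (0.295 to 0.625). Ccn3 had a ratio of 2.01 (0.955 to 4.87) from 8 and 59 UMIs, and Spock2 of 0.607 (0.376 to 1.01).

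Of 21 other targets of YAP and TEAD, 16 had enough UMIs, and 2 were higher and 2 lower, with a median log2 ratio of -0.23. Igfbp3, also a marker of the groups above, was lower, with a ratio of 0.610 (0.564 to 0.660), as was Gadd45a with 0.594 (0.491 to 0.721). The intervals of the higher genes reached 1, with ratios of 1.59 (0.854 to 3.22) for Fjx1 and 1.51 (0.787 to 3.18) for Dock5. Of 12 TGF-β response genes, 1 was higher and 0 were lower. Col8a1 had 58.6 and 110.3 CPM and a ratio of 1.88 (1.52 to 2.35), Acta2 of 1.36 (1.12 to 1.67), Col5a1 of 0.848 (0.735 to 0.980) and Eln of 0.681 (0.565 to 0.824). All 20 immediate early genes lay within 1.5-fold, from Fosl1 (0.731) and Klf6 (0.815) to Ier2 (1.43) and Egr1 (1.45).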

How the data were processed

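The deposited matrices hold counts, that is UMIs per gene and barcode, which the authors made with Cell Ranger 7.1.0 and the mm10 build, as named in the submitters' processing notes. Version 3 of the 10x Genomics 3-prime chemistry was used, so levels are not corrected for length. Libraries totalled 5381844 (WT) and 28215539 (mgR) UMIs. Cells with 200 to 5000 genes and at most 10% mitochondrial UMIs were kept. CPM were sums of UMIs over the cells of a class relative to all UMIs of that class, with Poisson, Clopper-Pearson and conditional binomial intervals (scipy 1.17.1). Ratios needed 20 UMIs over both libraries, except where fewer UMIs are given beside them, and list genes 50. Scripts were tested on simulated counts. Each genotype had a single library, which allows no test. A class took cells that met exactly 1 rule; T cells needed 2 UMIs of Cd3d, Cd3e, Cd3g and Trac. Fibroblast and macrophage groups needed 3 marker UMIs. Genes leading the macrophages rich in Fn1 were chosen after their values were seen. All 10 genes were named. Of each list the 2 highest and 2 lowest fibroblast ratios were named, and for likeness up to 3 genes with r of at least 0.3 in the mgR library (Fos and Jun, below it, were added after their values were seen). Positions came from GENCODE by gene identifier. Doublets were marked with Scrublet (scanpy 1.11.5). The genes and lists were chosen with earlier results of these data known.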

Additional observations from a re-analysis of the deposited data

Results flagged for a closer look

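Directions that differed between groups of cells beyond counting error were singled out, and none of these differences was tested, since each genotype has 1 library. In fibroblasts, Thbs1 had a ratio of mgR to WT of 1.62 where cells held Xist UMIs without Y-linked ones and 0.478 where the reverse held, and Fn1 had 2.77 and 0.501. In dual-rule cells, Postn had 2.30 in the former kind of cell (9 WT cells) and 0.645 in the latter (9 WT cells).

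Between classes, Fn1 was above 1 in fibroblasts (2.03), macrophages (9.30) and dual-rule cells (1.36) and below 1 in endothelium (0.652). In WT endothelium 2 cells held 70.7% of the Fn1 UMIs. Spp1 was above 1 in macrophages (1.58) and below 1 in fibroblasts (0.534). Ccn2 was above 1 in dual-rule cells (1.96) and below 1 in fibroblasts (0.743) and in macrophages, where the ratio of 0.188 came from 4 WT and 7 mgR UMIs.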

How the results depend on the processing

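Of 274 log2 ratios recomputed under alternatives, 225 stayed within the main counting interval and 39 moved beyond it. A further 10 changed direction where the main interval excluded 0. In fibroblasts these counts were 79, 23 and 7 of 109. Where the main interval included 0, a changed sign was not counted as a change of direction, as for Ccn1 and Postn in fibroblasts. Where not stated, the cause of a move was not tested. No paired analysis was possible because each genotype has 1 library. With cells that meet several rules allowed, fibroblast log2 ratios moved to -0.87 for Thbs1, -0.57 for Thbs2, 0.08 for Sparc, 0.35 for Ccn1, -0.61 for Ccn2, 0.48 for Ccn5 and 1.56 for Fn1, and the endothelial ratio of Fn1 turned to 0.23. In cells with Xist UMIs alone they were 0.70 for Thbs1, 0.55 for Sparc, -0.31 for Spp1, -0.78 for Ccn1, -0.05 for Ccn2, 0.44 for Ccn5 and 1.47 for Fn1. With Y-linked UMIs alone they were -0.54 for Tnc, -1.06 for Thbs1, -0.01 for Sparc, -3.90 for Spp1 and -1.0 for Fn1, and -1.23 for Ccn1 in endothelium. Thinned to 2000 UMIs, Postn was 0.02, Tnc -0.88 and Thbs1 -0.88. As means of per-cell CPM, Tnc was -0.20, Thbs1 -0.84, Ccn2 -0.27 and Fn1 0.62. Without the richest 1% of cells, Sparc was 0.43, Spp1 0.24 and Ccn5 0.94, and Postn in endothelium 0.96. Without fibroblasts holding endothelial UMIs, an alternative chosen after seeing the data, Fn1 was 0.52. The limits of 20, 20 and 4 UMIs, the 5% mitochondrial limit, the exclusion of Scrublet-marked cells and the median scale moved no fibroblast ratio beyond its interval, but the first of these took Postn to 1.20 and Ccn1 to 1.42 in dual-rule cells and Sparc to 0.94 in endothelium.

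Counts of genes past the fold changed as follows. At a fold of 2, lower genes in fibroblasts went from 2 to 0, higher genes in macrophages from 2 to 1, in endothelium from 2 to 1 and in dual-rule cells from 5 to 1, and lower genes in endothelium from 2 to 0. With the median scale, lower genes in fibroblasts went from 2 to 1, and macrophages had 1 higher and 1 lower. Precision was limited by the 29 endothelial and 28 dual-rule WT cells, and counting intervals do not cover the spread between animals.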
